A study of Mus musculus with 12 samples.

Results

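The transcripts described here are those of 10 genes that carry glucose into the cell and take it through glycolysis to lactate: Slc2a1, Hk1, Hk2, Pfkl, Pfkp, Aldoa, Pgk1, Eno1, Pkm and Ldha. They were found by gene symbol, and 9 of the 10 had a row among the 14533 genes measured. No row carried the symbol Eno1, which was not analysed here. Every listed gene had over 0.5 CPM (counts scaled to library size) in at least 6 mice, a floor that the 9 members cleared in both groups, with 119 counts or more in every mouse. Messenger RNA from epidermal scrapings of non-lesional dorsal skin was sequenced from 12 untreated C57BL/6 mice, with 1 library per mouse, and the question was how loss of epidermal Pparg changes the resting transcriptome. All 12 mice were homozygous for a floxed Pparg allele (Pparg flox/flox). The 6 Pparg-/-epi mice (replicates 7 to 12, 4 female and 2 male) also carried Cre recombinase under the keratin 14 promoter (K14-Cre+/-), and the 6 wildtype sibling controls (WT, replicates 1 to 6, 3 female and 3 male) did not (K14-Cre-/-). The former are called mutants and the latter controls below. The labels gave ages of 8 to 13 weeks in both groups. The keratin 14 promoter is active in basal keratinocytes of the interfollicular and follicular epidermis, so cells of other lineages in a scraping keep the unrecombined allele. Scraping went on until the superficial dermis was reached.

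Glucose enters keratinocytes mainly through the facilitative transporter GLUT1, the product of Slc2a1, and hexokinases trap it in the cell as glucose 6-phosphate. Phosphofructokinase commits the sugar to glycolysis, aldolase splits it, and phosphoglycerate kinase, enolase and pyruvate kinase carry the fragments to pyruvate, which lactate dehydrogenase A converts to lactate. In skin these genes are known for their rise in proliferating, wounded or oxygen-poor epidermis, and many of them are textbook targets of hypoxia-inducible factors and of MYC.

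The stretches before the transcription start are shown for 3 altered members that stand at the entry, the first enzyme step and the exit of the pathway. Each covers the 250 bases before a RefSeq start (GRCm38.p6, the same build as mm10), written 5′ to 3′ on the strand of the gene. Capitals mark ACGTG or GCGTG, the cores of the hypoxia response element, and CACGTG, the E-box, searched on both strands. Every CACGTG also holds ACGTG on both strands, and the reverse complements CACGT and CACGC are capitalized too.
Slc2a1, chr4:119108495-119108744, plus strand: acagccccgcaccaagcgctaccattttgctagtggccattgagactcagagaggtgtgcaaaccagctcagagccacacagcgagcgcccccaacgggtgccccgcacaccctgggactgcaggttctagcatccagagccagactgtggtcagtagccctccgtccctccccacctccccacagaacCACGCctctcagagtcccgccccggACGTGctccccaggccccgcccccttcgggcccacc
Hk2, chr6:82774455-82774704, minus strand: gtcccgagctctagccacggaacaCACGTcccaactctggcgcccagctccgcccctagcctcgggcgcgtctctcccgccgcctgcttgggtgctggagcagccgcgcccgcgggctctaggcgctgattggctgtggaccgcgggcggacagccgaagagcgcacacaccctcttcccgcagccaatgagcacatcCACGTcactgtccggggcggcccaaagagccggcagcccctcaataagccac
Ldha, chr7:46845554-46845803, plus strand: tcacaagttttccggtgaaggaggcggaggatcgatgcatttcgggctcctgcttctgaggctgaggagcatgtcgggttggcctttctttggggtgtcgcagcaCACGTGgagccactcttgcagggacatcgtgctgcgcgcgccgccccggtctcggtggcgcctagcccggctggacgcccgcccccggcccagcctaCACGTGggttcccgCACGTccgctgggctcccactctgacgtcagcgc
The tables of starts held 17 windows for the 10 genes, and a hypoxia response element core was found in 14 of them, with at least 1 such window for each of the 10 genes. Of all 32851 windows of the same length, 38.6% held a core (ACGTG in 16.6%, GCGTG in 28.2%). The members' windows were rich in G and C, from 49.6% to 71.2%, and among windows with at least 60% G or C a core was found in 11 of 12 for the members and in 63.8% of all 9178. The E-box was present in 1 member window, the one of Ldha shown above (6.02% of all windows). Ldha has another RefSeq start, whose window (chr7:46846832-46847081) held 1 GCGTG and no E-box. The letters AGGTCA, the half-site read by nuclear receptors such as PPARγ, occurred in 4 of the 17 member windows and in 14.0% of all windows. Windows of Aldoa and of Eno1 overlap in 1 pair each, so that sites are counted again there, and over the 15 separate stretches 12 held a core and 3 the half-site. These matches describe letters only, and binding was not measured.

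Total counts per library ranged from 10120840 to 18851255, so that 1 count was worth 0.0520 to 0.107 CPM (the TMM-scaled count unit used throughout, which sets the libraries to a common effective size). Summed over the whole gene, Pparg had 5 to 269 counts in controls and 16 to 107 in mutants. The counts overlapped between the groups, and as they cover exons outside the floxed ones they do not check the genotype. Pparg, also a gene of adipocytes, was highest in WT replicate 2 (14.3 CPM), where the sum of 7 adipocyte markers was highest too (293.5 CPM), and lowest in WT replicate 3 (0.533 CPM), where that sum was lowest (7.57 CPM). Of the keratinocyte markers, 6 of 6 basal and 5 of 6 suprabasal genes were listed, and their sums were 9958 to 17573 CPM and 13607 to 41412 CPM in controls and 11561 to 16416 CPM and 21297 to 44148 CPM in mutants. Fibroblast markers summed to between 1014 and 34533 CPM, which shows dermis in every scraping. WT replicate 5 stood apart by skeletal muscle: the 10 muscle markers summed to 13098 CPM there, to at most 425 CPM in the remaining WT mice and to at most 563 CPM in mutants. In bulk tissue, a change in the share of a cell type and a change in RNA per cell cannot be told apart. Each library was 1 mouse, and p-values weigh the group difference against the spread between these mice.

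Of the 9 members, 7 were altered and all 7 were higher in Pparg-/-epi mice: the transporter Slc2a1 and the enzyme genes Hk2, Pfkl, Pfkp, Pgk1, Pkm and Ldha. Altered means that the size of the log2 fold change reached 0.6 while its adjusted p was under 0.05 (edgeR's quasi-likelihood test, Benjamini-Hochberg adjustment over all 14533 genes). Over all genes, 5.19% were altered and higher and 5.08% altered and lower. In 6 of the 9 members the lowest mutant exceeded the highest control, which held for 3.95% of all genes. The fitted log2 fold change was above 0 in 9 of 9 members, with a median of 0.98 against -0.01 over all genes. The members were chosen with earlier results of these data known, and no test was made of them as a list.

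**Figure D1:**
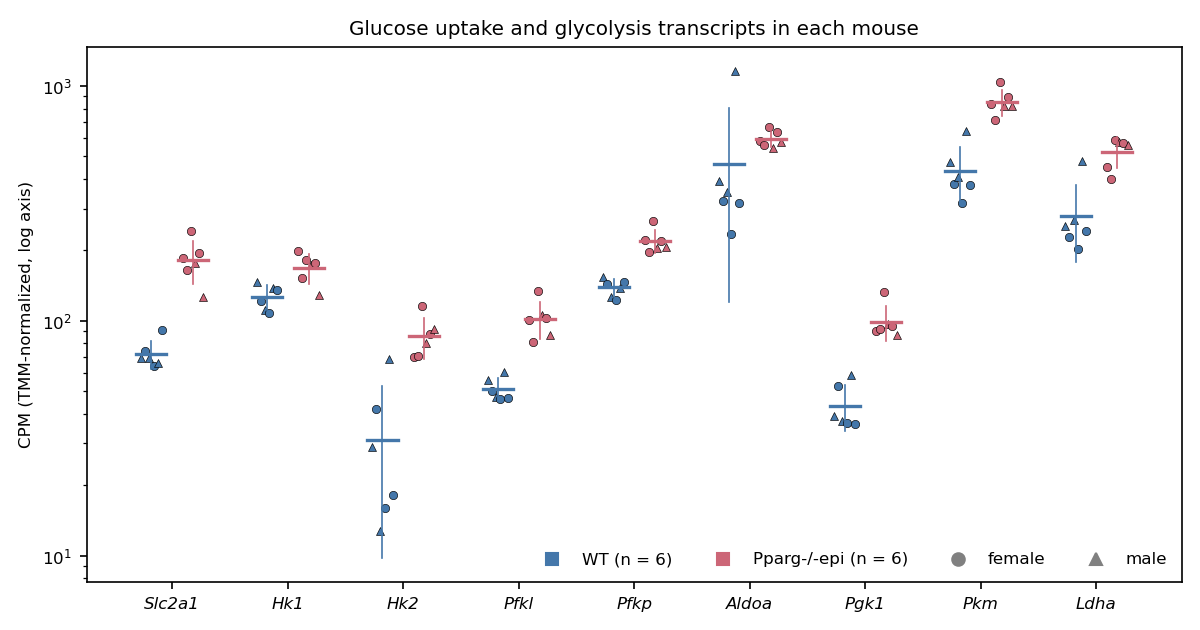
CPM of the 9 listed members in each of 12 mice, on a log axis. Blue marks are WT and red marks Pparg-/-epi mice, circles are females and triangles males, horizontal lines are group means and vertical lines span 1 SD on either side (n = 6). In Slc2a1, Hk2, Pfkl, Pfkp, Pgk1 and Pkm the red marks all lie above the blue ones, while 1 male WT mouse reaches 1152 CPM of Aldoa, above every other mouse.

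Slc2a1 encodes GLUT1, the main glucose transporter of the basal epidermis, and lies on chromosome 4 from 119108745 to 119137329 of mm10 with 10 exons counted. In WT replicates 1 to 6 it measured 69.2, 74.3, 69.2, 63.9, 66.1 and 91.3 CPM. In Pparg-/-epi replicates 7 to 12 it measured 184.5, 163.7, 240.6, 175.3, 194.0 and 126.4 CPM. The lowest mutant was thus well above the highest control, and WT mice were close together apart from replicate 6. Means were 72.3 ± 9.94 CPM (SD, n = 6) in WT and 180.8 ± 37.5 CPM (SD, n = 6) in Pparg-/-epi mice, 2.5-fold higher (log2 fold change 1.32, standard error 0.14, adjusted p = 2.06e-04). Over 12 fits, each lacking 1 mouse, its log2 fold change ran from 1.21 to 1.41, and Slc2a1 was altered in all of them.

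The hexokinases differed from each other. Hk1, the broadly expressed isozyme on chromosome 10 from 62268855 to 62379908, measured 146.7, 120.9, 110.7, 108.3, 137.3 and 135.1 CPM in controls and 197.9, 151.9, 181.2, 173.3, 176.1 and 128.8 CPM in mutants. Pparg-/-epi replicate 12 lay inside the WT range and the remaining 5 above it. The log2 fold change of Hk1 was 0.41 (standard error 0.11, adjusted p = 0.0288), past the p threshold, as were 15.4% of all genes, but short of the fold threshold, so Hk1 was not counted as altered. Its adjusted p was 0.0632 with blocks by the first number in the mouse names (192, 195 and 217 against 222, 225 and 226). The adjusted p of Hk1 was also not under 0.05 in 7 of the 12 fits lacking a mouse (0.011 to 0.0958 over all 12). Hk2, the inducible isozyme of muscle and proliferating cells, lies on chromosome 6 from 82725027 to 82774454, with 18 exons. Its controls spread over a wider ratio than those of any other member, at 29.1, 42.03, 12.7, 16, 68.8 and 18.1 CPM. Its Pparg-/-epi values were 70.1, 70.9, 115.9, 79.9, 87.3 and 91.8 CPM. The groups did not overlap, although WT replicate 5 came close to the lowest mutant. Hk2 rose 2.76-fold (log2 fold change 1.47, standard error 0.36, adjusted p = 0.0166), and without WT replicate 5 its log2 fold change was 1.86. Per kilobase of counted exon length (RPKM), Hk2 made up 15.6% ± 8.10 (SD, n = 6) of the summed transcripts of Hk1, Hk2 and Hk3 in controls and 29.4% ± 5.17 (SD, n = 6) in mutants, with Hk1 at 83.3% ± 8.09 and 69.9% ± 5.14. Hk1 thus remained the most abundant of these 3 transcripts in both groups.

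Phosphofructokinase was represented by its liver and platelet isozymes, and both rose. Pfkl, on chromosome 10 from 77986949 to 78009796, measured 55.8, 50.1, 47.4, 46.5, 60.5 and 46.9 CPM in controls and 100.3, 81.2, 133.1, 105.4, 102.4 and 87.3 CPM in mutants, a 1.98-fold rise (log2 fold change 0.99, standard error 0.12, adjusted p = 3.43e-04). Pfkp, on chromosome 13 from 6579874 to 6648771, measured 153.8, 143.6, 125.9, 123.0, 137.7 and 146.4 CPM in controls and 219.4, 195.6, 265.9, 204.3, 219.2 and 206.5 CPM in mutants, a 1.58-fold rise (log2 fold change 0.66, standard error 0.09, adjusted p = 7.62e-04). In both isozymes the groups did not overlap and Pparg-/-epi replicate 9 was the highest mouse. Pfkp lay near the fold threshold, and without Pparg-/-epi replicate 9 its log2 fold change was 0.58, short of it. Exons of Pfkp overlap those of the neighbouring gene Pitrm1, on the opposite strand, over 642 bases or 15.3% of its counted length, and the strand setting of the counting is not given in the sources used here. Pitrm1 itself had a log2 fold change of 0.00 with an adjusted p of 0.990.

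Aldoa, the aldolase of most tissues and of skeletal muscle, was not altered with all mice, and its groups overlapped. It lies on chromosome 7 from 126795234 to 126800447 with 12 exons counted, and it measured 394.9, 322.3, 354.2, 233.2, 1152 and 316.7 CPM in WT replicates 1 to 6 and 584.5, 557.5, 666.9, 542.8, 636.2 and 578.9 CPM in Pparg-/-epi replicates 7 to 12. WT replicate 5 exceeded every mutant, and the other 5 WT mice lay below every mutant. With all mice the log2 fold change was 0.36 (standard error 0.33, adjusted p = 0.507), and without WT replicate 5 it was 0.87 (standard error 0.13, adjusted p = 0.00195), altered. The same library held the skeletal muscle transcripts: Myh4, a fast muscle myosin heavy chain, was at 4734 CPM there and at most 92.5 CPM in the other WT mice, and Acta1, skeletal muscle actin, at 1493 and at most 41.8 CPM. The muscle isozymes of glycolysis, named here after their values were seen, followed the same mouse. Pfkm, muscle phosphofructokinase, was at 194.2 CPM in WT replicate 5 and at most 28.4 CPM in the other WT mice, and Eno3, muscle enolase, at 259.7 and at most 15.2 CPM. Pgam2, muscle phosphoglycerate mutase, was at 98.2 and at most 3.32 CPM, and Pygm, muscle glycogen phosphorylase, at 530.0 and at most 15.0 CPM. The muscle markers moved with Aldoa in this library, and without it 8 of the 9 members were altered, where 4.16% of all genes were altered and higher.

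**Figure D2:**
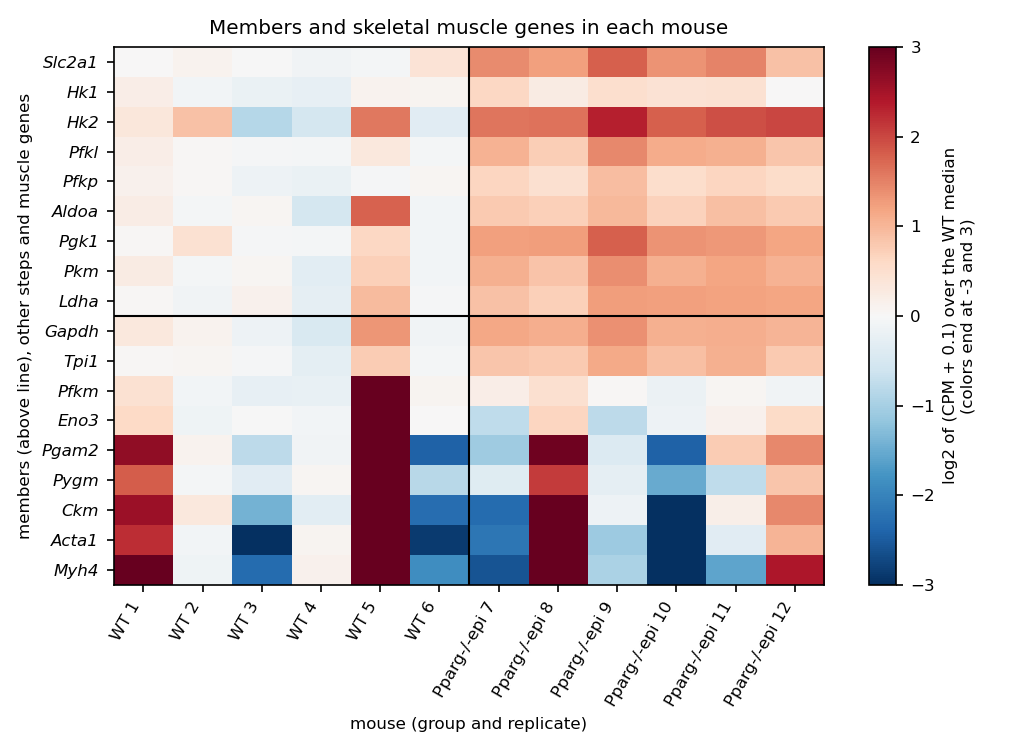
Colors give log2 of CPM plus 0.1 relative to the WT median for 12 mice (columns) and for the members (above the horizontal line), 2 other glycolysis genes, 4 muscle isozymes and 3 muscle markers (below). The right-hand block of 6 Pparg-/-epi mice is red over the members, palest for Hk1, which in replicate 12 (128.8 CPM) is near the WT median (128.0 CPM). WT replicate 5 is red for Aldoa, Hk2 and Ldha and paler for Pkm and Pgk1. It is at the end of the scale for the muscle genes, with Myh4 at 4734 CPM.

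Pgk1, which makes the first ATP of the pathway, is on chromosome X from 106187100 to 106203699. It measured 39.3, 52.7, 37.3, 36.8, 58.7 and 36.1 CPM in controls and 90.0, 91.7, 133.0, 96.9, 94.7 and 86.5 CPM in mutants. No mutant overlapped a control, and Pparg-/-epi replicate 9 was again the highest. Pgk1 rose 2.27-fold (log2 fold change 1.18, standard error 0.15, adjusted p = 4.34e-04). Its level is uncertain, as 67.5% of its 75-base stretches, the length of a read, also occur in transcripts of 4 other genes, all of them pseudogenes, and the authors removed reads that mapped to several places. The corresponding share was at most 14.8% in the 8 other listed members. For the enolase step, 44.3% of the stretches of Eno1 occur in other genes. A row under the symbol Eno1b has 12 of its 14 exons on chromosome 4 from 150237324 to 150248873, inside the span that RefSeq gives for Eno1 (150236708 to 150248879), so its reads cannot be told from those of Eno1. That row measured 4.83 to 11.5 CPM in controls and 8.06 to 20.6 CPM in mutants, with overlapping groups (log2 fold change 0.64, standard error 0.27, adjusted p = 0.132).

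Pkm, the pyruvate kinase of skin, and Ldha, which reduces pyruvate to lactate, end the pathway. Pkm, on chromosome 9 from 59656368 to 59679375, measured 472.3, 381.7, 409.0, 315.6, 644.3 and 376.3 CPM in controls and 834.2, 717.7, 1042, 820.9, 893.0 and 817.6 CPM in mutants. All mutants lay above all controls, and the rise was 1.97-fold (log2 fold change 0.98, standard error 0.16, adjusted p = 0.00196). Counts were summed over the gene, so the PKM1 and PKM2 splice forms were not separated. Ldha, on chromosome 7 from 46845804 to 46855627, measured 252.5, 227.6, 268.7, 202.7, 477.8 and 239.8 CPM in controls and 450.2, 402.4, 584.7, 578.5, 568.8 and 561.8 CPM in mutants. WT replicate 5 reached into the mutant range and the other 5 WT mice lay below it. Ldha rose 1.89-fold (log2 fold change 0.91, standard error 0.20, adjusted p = 0.00808), and the fit lacking WT replicate 5 gave 1.14.

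The mice of a group differed from each other in much the same way over several members. Pparg-/-epi replicate 9 had the highest value of its group in 8 of 9 members, and its median log2 deviation from the WT median was 1.40, against 0.74 to 1.18 in the other 5 mutants. WT replicate 4 was the lowest control in 7 of 9 members, with a median deviation of -0.24, and WT replicate 5 the highest in 6 of 9, with 0.62. The remaining 4 controls lay between -0.06 and 0.19. Every Pparg-/-epi mouse exceeded the WT median in 9 of 9 members. By the median over members all 6 mutants lay above all 6 controls, the lowest mutant at 0.74 and the highest control at 0.62. The mice are listed here as a description, since the members were not chosen independently of these data.

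Per kilobase of counted length, the order of the members from low to high was Hk2, Pfkl, Pgk1, Hk1, Slc2a1, Pfkp, Ldha, Pkm and Aldoa in WT mice, from 5.64 ± 3.87 RPKM for Hk2 to 166.7 ± 44.3 RPKM for Pkm and 253.4 ± 187.5 RPKM for Aldoa (SD, n = 6). Pgk1 (23.8 ± 5.33), Hk1 (28.1 ± 3.45) and Slc2a1 (28.1 ± 3.87 RPKM) did not differ beyond their spread. The place of Pgk1 is uncertain in both groups, as 67.5% of its 75-base stretches are shared and multi-mapped reads were removed. That share was 0.85% for Slc2a1 and 1.22% for Hk1. In Pparg-/-epi mice the order was Hk2 (15.6 ± 3.09), Pfkl (27.3 ± 4.85), Hk1 (37.3 ± 5.39), Pfkp (52.2 ± 5.97), Pgk1 (54.1 ± 9.39), Slc2a1 (70.3 ± 14.6), Ldha (271.7 ± 40.3), Aldoa (325.9 ± 26.2) and Pkm (328.6 ± 41.5 RPKM). Slc2a1 was thus level with Hk1 in controls and above it in mutants, where its spread reached that of Pgk1, and Aldoa and Pkm were within their spread of each other.

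With all mice the point estimate of the difference was larger in females than in males in all 9 members, but no member differed between the sexes by test. Without WT replicate 5, a male, the genotype by sex term of Hk2 turned to 0.27, larger in males, and those of Ldha and Pgk1 shrank to -0.04 and -0.03, and without Pparg-/-epi replicate 12 that of Slc2a1 was 0.01. In the 7 females alone 8 members were altered, Aldoa among them (log2 fold change 1.07, adjusted p = 0.0160), where 2.02% of all genes were altered and higher. In the 5 males alone 0 members were altered by edgeR, where 0.0757% of all genes were altered and higher. At an unadjusted p under 0.05 the males held 6 members and 14.0% of all genes. The fitted log2 fold changes in males were 1.13 for Slc2a1, 1.20 for Hk2, 1.01 for Pgk1 and -0.20 for Aldoa. The genotype by sex term of edgeR's quasi-likelihood test had an adjusted p between 0.895 and 0.939 in the 9 members, and 0.0% of all genes passed. At an unadjusted p under 0.05 the term held 1 member, Aldoa (-1.25 on the log2 scale, standard error 0.55), and 5.10% of all genes, and DESeq2 called 0 members and 10 of all genes.

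**Figure D3:**
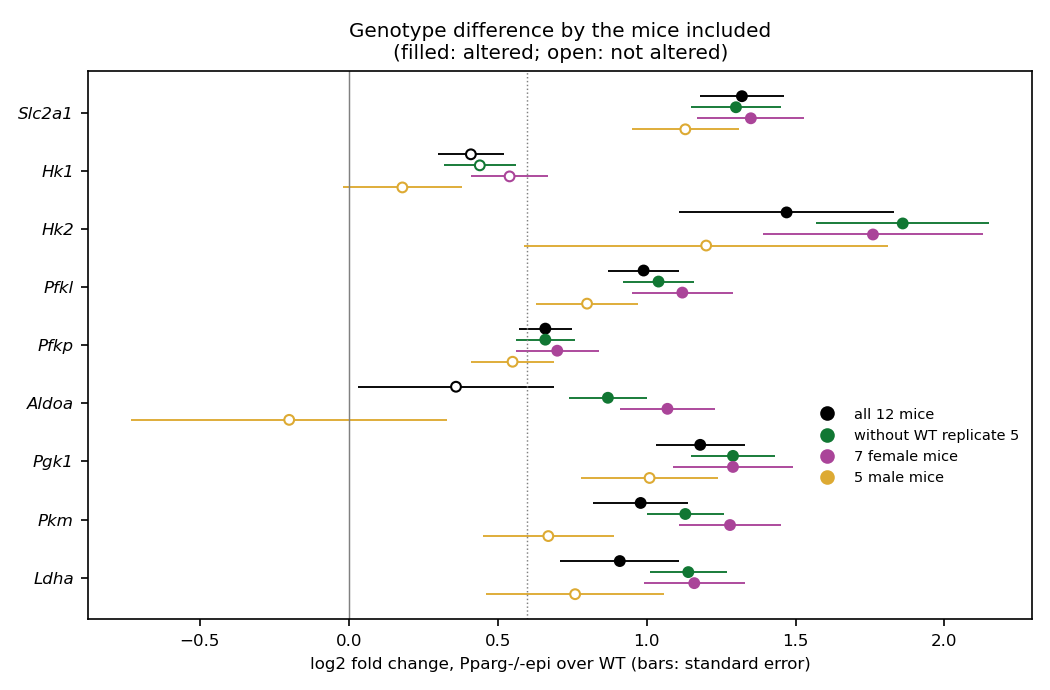
Log2 fold change of each member, Pparg-/-epi over WT, fitted with all 12 mice, without WT replicate 5, in the 7 females and in the 5 males. Bars are standard errors, filled marks are altered and open marks not altered, and the dotted line is the fold threshold of 0.6. Aldoa moves from 0.36 with all mice to 0.87 without WT replicate 5 and 1.07 in females, and no mark of the males is filled.

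The steps of glycolysis outside the members moved less uniformly. Of 17 listed genes 14 were measured, of which 4 rose and 10 were not altered, with a median log2 fold change of 0.20. The altered share was 28.6%, beside 10.3% of all genes. Tpi1, triose phosphate isomerase, rose from 200.9 ± 57.7 to 350.1 ± 35.9 CPM (SD, n = 6 each, log2 fold change 0.80, adjusted p = 0.00508). Gapdh, the enzyme that follows it and a common reference gene, rose from 286.2 ± 151.5 to 511.2 ± 45.9 CPM (log2 fold change 0.84, adjusted p = 0.0420), with WT replicate 5 at 583.7 CPM and the other WT mice at no more than 290.4 CPM. Its call did not hold in 11 of the 12 fits lacking a mouse, and without WT replicate 5 its log2 fold change was 1.17. Of its 75-base stretches 55.5% are shared with other genes. Pgam1, phosphoglycerate mutase (40.6% shared), rose with a log2 fold change of 0.71 (adjusted p = 0.00458). Eno2, the neuronal enolase, rose by 1.18 from a low level of 2.77 ± 1.598 CPM (adjusted p = 0.0242, lost in 5 of the 12 fits). Gpi1, which makes fructose 6-phosphate, stayed just under the fold threshold, at 0.58 on the log2 scale (adjusted p = 0.00952).

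Among the other sugar transporters, of which 10 of 11 were measured, 1 rose, 1 fell and 8 were not altered. The shares of all genes were 5.19% altered and higher and 5.08% altered and lower. Slc5a1, the sodium-coupled glucose transporter SGLT1, measured 31.5, 19.1, 40.6, 24.3, 34.5 and 28.3 CPM in controls and 78.8, 53.8, 60.5, 76.4, 59.4 and 69.3 CPM in mutants (log2 fold change 1.16, adjusted p = 9.65e-04). Slc2a12, GLUT12, measured 83.9, 61.2, 93.3, 120.6, 118.0 and 122.2 CPM in controls and 19.97, 19.9, 30.2, 41.9, 41.0 and 47.6 CPM in mutants (log2 fold change -1.58, adjusted p = 0.00148). The 2 genes moved in opposite directions, each without overlap between the groups. Per length, Slc2a1 made up 38.9% ± 5.65 (SD, n = 6) and Slc2a12 36.0% ± 6.13 of the summed transcripts of Slc2a1 and 9 other transporters in WT mice, and 65.5% ± 5.99 and 8.52% ± 3.57 in Pparg-/-epi mice. Slc2a5 was left out of that sum, and with it each share would be lower. It was at 4.93 ± 1.12 RPKM in WT and 4.70 ± 1.05 RPKM in Pparg-/-epi mice. For Slc2a4, the insulin-responsive transporter GLUT4, the log2 fold change was -0.14 (adjusted p = 0.900).

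At the exit of the pathway, the monocarboxylate transporters Slc16a1 and Slc16a3 rose and the genes for entry into mitochondria did not pass the test. Of 16 genes for lactate export and pyruvate entry 2 rose and 14 were not altered, a share of 12.5% near the 10.3% of all genes. Slc16a1, encoding MCT1, measured 42.6, 34.0, 16.2, 17.6, 31.1 and 17.7 CPM in controls and 85.6, 64.7, 92.1, 77.3, 84.7 and 69.7 CPM in mutants, 2.97-fold higher (log2 fold change 1.57, adjusted p = 0.00115). Slc16a3, encoding the lactate exporter MCT4, measured 7.09, 9.29, 5.75, 5.85, 16.4 and 9.57 CPM in controls and 23.8, 21.6, 39.8, 34.1, 30.5 and 23.4 CPM in mutants, 3.21-fold higher (log2 fold change 1.68, adjusted p = 0.00135). In neither did the groups overlap. Slc16a7 (MCT2), of the same family, was at 3.37 ± 2.63 CPM in controls and 2.69 ± 2.08 CPM in mutants (log2 fold change -0.32, adjusted p = 0.745). Bsg, the chaperone of MCT1 and MCT4, was at 326.0 ± 66.7 CPM in controls and 306.2 ± 30.0 CPM in mutants (log2 fold change -0.09, adjusted p = 0.703). For Pdhb, a subunit of pyruvate dehydrogenase, the log2 fold change was -0.04 (adjusted p = 0.843), and for Pdk1, which inhibits the complex, it was 0.01 (adjusted p = 0.972). Mpc1 and Mpc2, the mitochondrial pyruvate carrier, were at -0.58 and -0.59 (adjusted p = 0.0664 and 0.0673).

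Few genes were altered in the pathways that branch from glycolysis, at 0.0% to 16.7% per list, and few over all genes, at 10.3%. Of 8 pentose phosphate genes 0 were altered in edgeR's quasi-likelihood test, its likelihood ratio test or DESeq2. In the quasi-likelihood test 1 of them had an unadjusted p under 0.05, beside 4282 of all 14533 genes. The median log2 fold change in the pentose phosphate pathway was 0.06. G6pdx, its first enzyme, was 0.44 higher on the log2 scale (adjusted p = 0.00521) without overlap between groups, under the fold threshold, and the abundant Tkt and Taldo1 had log2 fold changes of 0.12 and -0.11 (adjusted p = 0.507 and 0.577). Of 13 glycogen genes 1 fell, Gbe1, the branching enzyme, by 0.62 (adjusted p = 0.00876, lost in 2 of the 12 fits), and 12 were not altered. Of 6 gluconeogenesis genes 1 fell: Fbp2, the muscle-type fructose bisphosphatase that opposes phosphofructokinase, measured 2.56, 0.743, 3.30, 3.90, 7.35 and 4.03 CPM in controls and 0.208, 0.910, 0.0606, 0.249, 0.0904 and 0.859 CPM in mutants. Its log2 fold change was -3.17 (standard error 0.66, adjusted p = 0.00662), with 1 to 15 counts in the mutants, and it stayed altered without WT replicate 5 (-2.85).

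**Figure D4:**
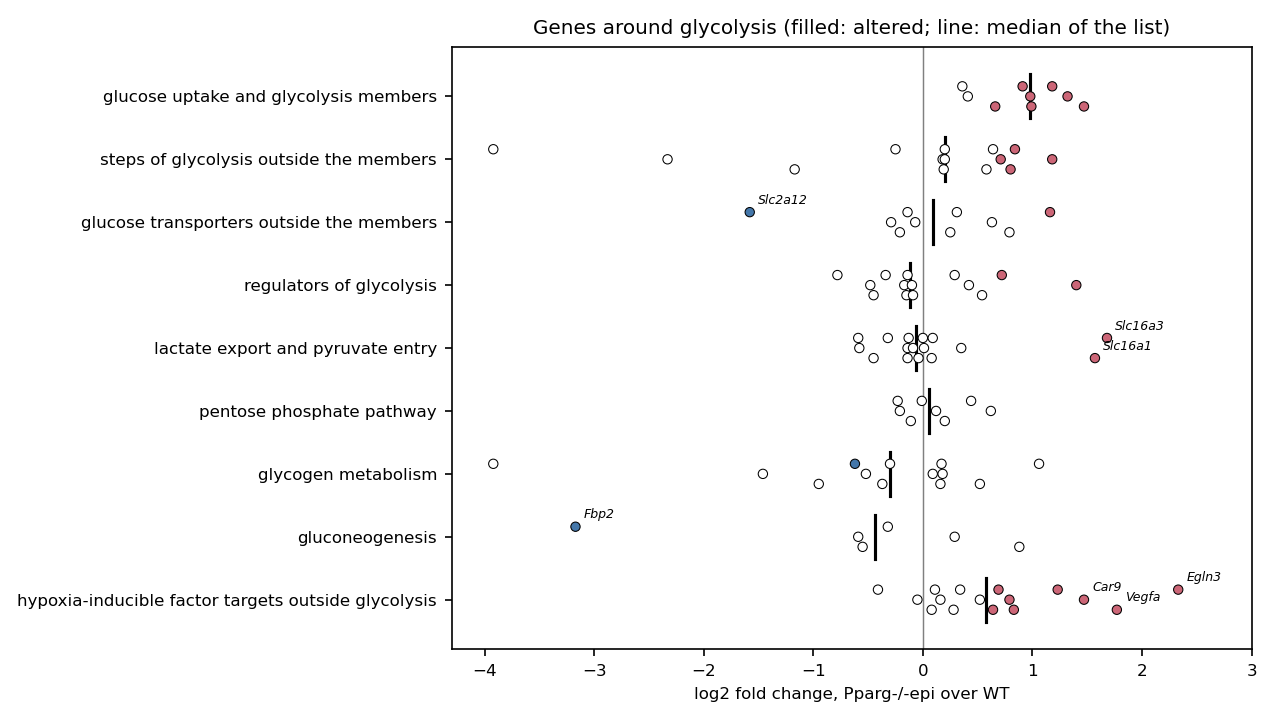
Log2 fold change, Pparg-/-epi over WT, of each measured gene of the members and of 8 lists of related genes. Filled marks are altered (red higher, blue lower), open marks are not, and vertical lines are list medians, which run from 0.98 for the members to -0.44 for gluconeogenesis.

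Regulators of glycolysis were altered in 2 of 14 genes, both higher, a share of 14.3% near the 10.3% of all genes. Pfkfb3, which makes the activator of phosphofructokinase, rose from 45.3 ± 11.3 to 74.9 ± 15.6 CPM (log2 fold change 0.72, adjusted p = 0.0180, 0.65 with an adjusted p of 0.0518 without Pparg-/-epi replicate 9). Epas1, encoding HIF-2α, rose from 45.8 ± 25.4 to 120.9 ± 28.0 CPM (log2 fold change 1.40, adjusted p = 0.00977), with WT replicate 2 at 91.1 CPM inside the mutant range. The sum of 6 endothelial markers was also highest of the controls there (109.6 CPM). Pparg-/-epi replicate 10 was the lowest mutant in both (73.1 and 27.0 CPM). The highest mutants differed, replicate 7 for Epas1 (149.0 CPM) and replicate 8 for the sum (171.0 CPM). The part of endothelial cells in the Epas1 values was not tested. Hif1a was at 174.7 ± 43.1 and 159.1 ± 23.5 CPM (log2 fold change -0.14, adjusted p = 0.630), Myc at 64.4 ± 6.66 and 86.6 ± 25.8 CPM (log2 fold change 0.42, adjusted p = 0.102), and Txnip, a brake on glucose uptake, at 522.1 ± 143.1 and 412.9 ± 67.1 CPM (log2 fold change -0.34, adjusted p = 0.244).

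Of 16 hypoxia-inducible factor targets outside glycolysis, 8 rose and the other 8 were not altered, where 5.19% of all genes were altered and higher. The median log2 fold change of these targets was 0.58. Egln3, the oxygen-sensing prolyl hydroxylase PHD3, measured 77.1, 139.7, 91.1, 93.2, 118.3 and 94.6 CPM in controls and 479.7, 408.4, 745.8, 448.7, 593.6 and 402.9 CPM in mutants, 5.01-fold higher (log2 fold change 2.33, adjusted p = 3.32e-05). Vegfa, the endothelial growth factor, rose 3.42-fold from 30.2 ± 14.2 to 103.6 ± 15.4 CPM (log2 fold change 1.77, adjusted p = 0.00109). Car9, carbonic anhydrase IX, rose by 1.47 from 1.34 ± 0.452 CPM (adjusted p = 0.00398), and Ero1l, Egln1 and Ankrd37 by 1.23, 0.83 and 0.79 (adjusted p = 0.0212, 4.86e-04 and 0.0113). Bnip3 and Higd1a rose by 0.64 and 0.69 (adjusted p = 0.0465 and 0.0153). Other targets in the list did not pass, among them the abundant Bnip3l (log2 fold change 0.08, adjusted p = 0.766) and Ndrg1 (0.34, adjusted p = 0.140). With each mouse left out in turn, 13 of the 20 altered genes of the 8 lists were altered in all 12 fits, and the calls of Bnip3, Ero1l and Higd1a were lost in 9, 3 and 1 of them.

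Several marker lists of the scrapings also differed between the groups. Of all 14533 genes, 10.3% were altered (5.19% higher and 5.08% lower), and 4282 had an unadjusted p under 0.05 in edgeR's quasi-likelihood test. The wound and stress keratins Krt6a, Krt6b, Krt16 and Krt17 summed to between 457.4 and 1751 CPM in controls and between 2858 and 5410 CPM in mutants. By the quasi-likelihood test 3 of the 4 were higher, and by the likelihood ratio test and DESeq2 all 4 were. Pparg-/-epi replicate 9 had the highest sum, as it did for 8 of the members. Cycling-cell markers summed to between 190.4 and 343.3 CPM in controls and between 432.1 and 754.1 CPM in mutants (4 of 6 rose, among them Mki67 by 1.46 and Top2a by 1.04 on the log2 scale), and there Pparg-/-epi replicates 7 and 8 were highest. Sebocyte markers summed to between 19.5 and 934.9 CPM in controls and between 2.41 and 10.2 CPM in mutants, with 5 of the 6 measured lower by test. Endothelial markers, 1 of 6 altered, summed to between 5.41 and 109.6 CPM in controls and between 27.0 and 171.0 CPM in mutants. Of the basal keratinocyte markers Krt14 rose by 0.98 and Krt15 fell by 1.74. Among immune markers Cxcr2 of neutrophils and Epcam of the Langerhans cell list rose, and Cd3e of T cells fell, 1 gene in each list. The hair follicle, adipocyte, fibroblast and erythroid lists (of the last only 1 of 6 was measured) had 0 genes altered by edgeR or DESeq2 and 0 with an unadjusted p under 0.05. Hair follicle markers still leaned higher in mutants, with 7 of 8 log2 fold changes above 0 and a median of 1.28. Their sums spread widely, from 10.4 to 854.4 CPM in controls and from 85.7 to 2242 CPM in mutants. The suprabasal list had 0 altered by edgeR and 1 by DESeq2 (2 with an unadjusted p under 0.05), and the muscle list 0 by either, with 7 at an unadjusted p under 0.05 and 3 by the likelihood ratio test. The part of these cell and state differences in the rise of the glycolysis transcripts was not tested.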

How the data were processed

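Epidermal scrapings from 6 WT and 6 Pparg-/-epi mice were sequenced (KAPA mRNA HyperPrep, paired 75-base reads). The deposited table holds read counts per gene without normalization. The authors aligned reads with STAR 2.5.2b to mm10, removed multi-mapped and low-quality reads and counted genes with featureCounts (Subread 1.5.1), per the submitters' processing notes. The table lists 14533 genes, and 2800 blank rows were dropped. Libraries were matched to mice by library number and mouse name.

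Counts were scaled by TMM and compared by genotype alone with the quasi-likelihood test of edgeR 4.0.16 under R 4.3.3 over all 14533 genes with Benjamini-Hochberg adjustment. The likelihood ratio test of the study and DESeq2 1.42.0 were alternatives, as were other scalings, stricter count filters, sex, RIN, age or mouse number as covariates, each sex alone and each mouse left out. Checks on simulated counts recovered known changes. RPKM is the scaled count per kilobase of the deposited exon length. Shared sequence was taken from GENCODE M21 transcripts, and promoters from RefSeq. Figures used matplotlib 3.10.9.

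The members, the 8 related gene lists and the 14 marker lists were chosen with earlier results of these data known. Of the listed genes 1 is not reported here and was left out of the list counts. Named were all members, of each list the altered genes (up to 6) and the 2 of highest RPKM, and of marker lists the abundant genes. Further genes were named after their values were seen: Pfkm, Eno3, Pgam2, Eno1b, Gpi1, Slc2a4, Mpc1, Mpc2, Pdk1, G6pdx, Slc16a7, Bnip3, Higd1a, Myc, Ndrg1 and Pitrm1.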

Additional observations from a re-analysis of the deposited data

Results flagged for a closer look

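Among 76 groups of 6 mice (9 members and 29 list genes named by rule, each in both groups), 13 held a mouse far from the others by Dixon's criterion at the 95% level, where chance gives about 1 in 20. Of these, 6 were WT replicate 5, which also held the skeletal muscle markers: Aldoa at 1152 CPM (next highest WT mouse 394.9), Ldha at 477.8 (268.7), Gapdh at 583.7 (290.4), Tpi1 at 315.1 (191.7), Pygm at 530.0 (15.0) and Slc16a3 at 16.4 CPM (9.57). Another 4 were Pparg-/-epi replicate 9, the mutant with the highest value in 8 of 9 members: Pfkp at 265.9 CPM (next highest mutant 219.4), Pgk1 at 133.0 (96.9), Car9 at 5.69 (3.74) and Pcx at 31.9 CPM (21.9). The remaining 3 were Ero1l in WT replicate 2, at 66.7 CPM (34.9), Pygm in Pparg-/-epi replicate 8, at 18.3 CPM (7.56), and G6pc3 in Pparg-/-epi replicate 11, at 11.2 CPM (10.2). The cause of these values was not tested.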

How the results depend on the processing

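No paired analysis was made, because the labels assign no mutant to a control or litter. The first number in the mouse names, whose meaning the labels do not give, is shared between the groups by 1 pair of mice (WT replicate 2 and Pparg-/-epi replicate 10), while another is held by 4 of the 6 WT mice. Of the 9 members 7 were altered, and the number was 6 to 8 with each mouse left out, lowest without Pparg-/-epi replicate 9 (Pfkp lost) and highest without WT replicate 5 (Aldoa gained), 8 in the 7 females alone (Aldoa gained) and 0 in the 5 males alone. Aldoa had a log2 fold change of -0.20 in the males alone. Over all genes 1493 were altered, 651 in the females alone, 18 in the males alone, and 1116 (without Pparg-/-epi replicate 9) to 2249 (without WT replicate 2) with each mouse left out. Of the list genes 20 were altered, 13 in the females alone, 1 in the males alone and 15 to 25 with each mouse left out. The count of members with a genotype by sex term past the threshold was 0 with total counts, with DESeq2 and with each mouse left out, the alternatives run for it. The likelihood ratio test, DESeq2, other scalings, count filters, covariates and mouse number blocks changed no member's call. Leaving out both WT replicates 2 and 5, chosen after seeing the data, added Aldoa (0.86). The male comparison rests on 3 WT and 2 Pparg-/-epi mice.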
